A study of Mus musculus with 27 samples.

Results

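The 39 genes described here are a set of peroxisome genes of mouse liver. They are 13 Pex genes, which encode peroxins, the proteins that build the organelle, and 26 genes listed with its enzymes and transporters, one of which, Vnn1, encodes an enzyme of the cell surface. Members were found by gene name in the deposited table, where all 39 were present among 54532 genes. Gene expression was measured by RNA sequencing of liver tissue from wild-type C57/BL6J mice, in 27 libraries. The groups were livers taken 24 h after removal of 70% of the liver in mice given etomoxir (PHx24_ETO, n = 4), 24 h after resection without it (PHx24, n = 7), 48 h after resection with etomoxir (PHx48_ETO, n = 4), 48 h after resection without it (PHx48, n = 7) and livers after sham operation (sham, n = 5). Etomoxir irreversibly inhibits carnitine palmitoyltransferase 1, the enzyme that starts the entry of long-chain fatty acids into mitochondria. The dose was 12.5 mg/kg, injected into the peritoneum 4 h before surgery, with a second dose 24 h after surgery in the mice followed to 48 h. The labels state neither age and sex, nor a time for the sham livers, nor whether mice without etomoxir received a vehicle. They also do not say that each library came from its own animal, and p-values therefore reflect how libraries, not necessarily mice, vary.

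Peroxisomes shorten very long and branched fatty acids by beta oxidation, finish the side chains of bile acids, start the synthesis of ether lipids and break down glyoxylate and hydrogen peroxide. Their enzymes are made in the cytosol and enter the organelle with the help of peroxins, which recognise a short signal in the enzyme, dock at the membrane and are recycled by ubiquitination. In rodent liver many of these enzymes, together with Pex11a, are raised by the nuclear receptor PPARA, which fatty acids and fibrate drugs activate.

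The libraries held 14903757 to 18446372 counts, and all 39 members passed the expression filter (FPKM, a read count scaled to gene length and library size, of 1 or more in 4 or more libraries), as did 12376 genes in all. Defining hepatocyte transcripts were detected in every group, with none of 8 at 0. Skeletal muscle transcripts were high in sham 1, PHx24 1 and PHx48 3, and pancreatic transcripts in sham 2, so counts are also given without these 4 libraries. PHx48 3 was also high in pancreatic transcripts (153 summed FPKM), and PHx48_ETO 4 had more muscle transcripts (88.1 summed FPKM) than the others of its group (0.48 to 11.8). PHx48_ETO 4 and PHx24_ETO 2 are not among the 4 and were each left out singly. The library PHx24_ETO 2 stood apart from the other 3 of its group, with a median correlation of log2 values of 0.935 against 0.973 to 0.974 in the other 3. It also had the most adipocyte transcripts of its group (66.8 summed FPKM, against 3.05 to 6.48 in the other 3), and values without it are given below for Pex11a, Ehhadh, Vnn1, Ech1, Acaa1b, Pex19, Acox2 and Nudt7. The summed FPKM of the 8 hepatocyte markers was 23419 to 31928 in PHx24, 28613 to 40766 in PHx48 and 29645 to 65902 in sham, where sham 4 and sham 5 were the highest. These markers moved with the enzymes below, with 5 of 8 lower and 1 higher in PHx24 than in sham, and 4 lower in PHx48 (edgeR adjusted p under 0.05). Their median log2 fold changes were -0.59 in PHx24 and -0.36 in PHx48, beside -0.40 and -0.49 for the enzymes. Of all genes tested 15.8% were lower and 19.1% higher in PHx24, and 17% lower and 19.5% higher in PHx48. Sinusoidal endothelial markers moved too, with 3 of 8 lower in PHx24 and 6 of 8 lower in PHx48 than in sham (median log2 fold changes -0.42 and -0.56). Of 8 Kupffer cell markers 1 was higher in PHx24, and 1 was higher and 3 lower in PHx48. Of 4 pancreatic markers tested 4 were lower in PHx24 and 2 in PHx48, both neutrophil markers tested were higher in PHx24, 0 of 11 muscle markers were called, and each of the remaining lists had at most 1 call. The part of these cell types in the results was not tested, and in whole tissue fewer cells of a type and less RNA per cell cannot be told apart.

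Levels of the members, which FPKM gives per gene length, spanned about 3 orders of magnitude. In sham livers the highest means were those of Scp2, the thiolase and sterol carrier of branched-chain oxidation (1584 ± 322 FPKM, SD, n = 5), catalase, Cat, which splits hydrogen peroxide (1143 ± 234 FPKM), and Phyh, the hydroxylase that starts alpha oxidation of phytanic acid (1025 ± 108 FPKM). Acaa1b, a 3-ketoacyl-CoA thiolase, followed at 554 ± 189 FPKM. The lowest were Agps, the second enzyme of ether lipid synthesis (1.52 ± 0.150 FPKM), Abcd2, a transporter of very long-chain acyl-CoA (1.63 ± 0.776 FPKM), and the ubiquitin ligase subunit gene Pex10 (2.27 ± 0.248 FPKM). The highest Pex gene was Pex16, which helps to insert membrane proteins (55.3 ± 6.33 FPKM). Summed over the 26 enzymes, the median library held 3992 FPKM in PHx24, 3769 FPKM in PHx48 and 6563 FPKM in sham. Summed over the 13 Pex genes, it held 228 FPKM in PHx24, 203 FPKM in PHx48 and 258 FPKM in sham. The enzyme sums of the untreated resected livers, 3193 to 4429 FPKM in PHx24 and 2446 to 4410.5 FPKM in PHx48, all lay below the 4903 to 8191 FPKM of sham. The Pex sums overlapped. Exons of 14 members overlap a gene on the opposite strand, by 0.0431% to 41.1% of their exon bases, and Gm49387 on the same strand covers 31.1% of those of Hacl1, so the counts of such genes are uncertain.

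**Figure D1:**
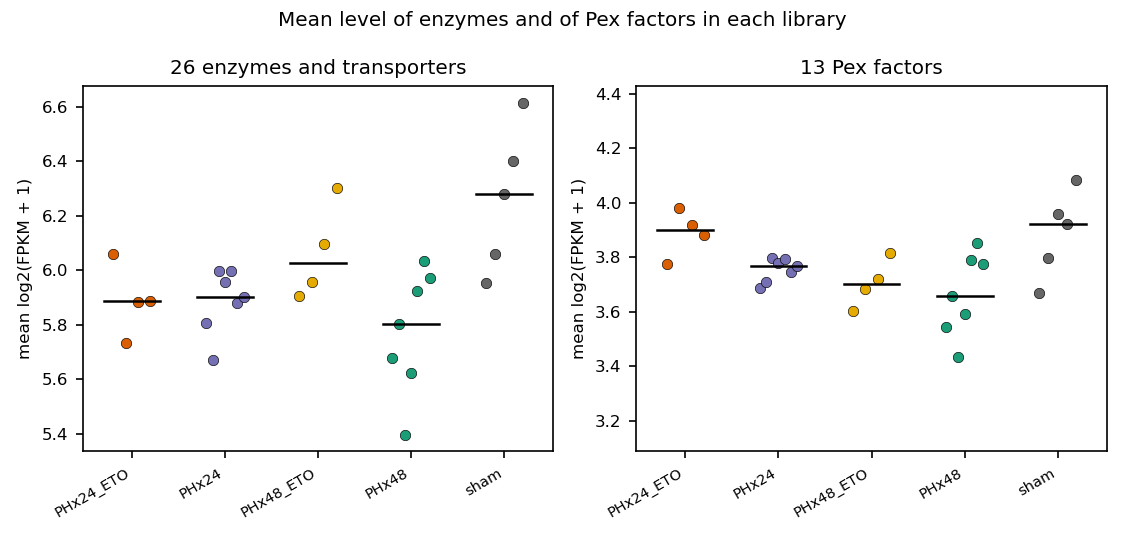
Mean log2(FPKM + 1) over the 26 enzymes and transporters (left) and the 13 Pex genes (right), with a point for each library, a line at the group median and the same axis span in both panels. The enzyme median was 5.90 in PHx24, 5.80 in PHx48 and 6.28 in sham, and the Pex median 3.77, 3.66 and 3.92 in the same groups.

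The 3 members with the largest called changes in any comparison were Nudt7, Ehhadh and Acaa1b, and their promoters are shown because these changes are described below. Nudt7 encodes a coenzyme A diphosphatase of the peroxisome and Ehhadh the bifunctional enzyme of its straight-chain beta oxidation. The windows run from 250 bases before to 50 after the start in RefSeq (GRCm38.p6), 5′ to 3′ on the strand of the gene. They are chr8:114133324-114133623 on the plus strand, chr16:21787785-21788084 on the minus strand and chr9:119157044-119157343 on the minus strand. Capitals mark CCAAT and GGGCGG on either strand, 2 motifs searched after the sequences were seen.
Nudt7: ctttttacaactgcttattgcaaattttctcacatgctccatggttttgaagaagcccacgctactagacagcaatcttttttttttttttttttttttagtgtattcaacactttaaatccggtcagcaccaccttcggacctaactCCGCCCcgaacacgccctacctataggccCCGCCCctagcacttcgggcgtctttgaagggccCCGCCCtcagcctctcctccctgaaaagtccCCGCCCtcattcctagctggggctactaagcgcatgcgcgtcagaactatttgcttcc
Ehhadh: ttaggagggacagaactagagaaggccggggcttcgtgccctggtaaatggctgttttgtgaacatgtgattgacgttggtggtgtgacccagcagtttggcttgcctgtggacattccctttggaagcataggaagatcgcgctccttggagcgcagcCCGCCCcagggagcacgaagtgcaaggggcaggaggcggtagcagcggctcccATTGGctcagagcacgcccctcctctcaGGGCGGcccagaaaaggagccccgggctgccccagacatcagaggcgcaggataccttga
Acaa1b: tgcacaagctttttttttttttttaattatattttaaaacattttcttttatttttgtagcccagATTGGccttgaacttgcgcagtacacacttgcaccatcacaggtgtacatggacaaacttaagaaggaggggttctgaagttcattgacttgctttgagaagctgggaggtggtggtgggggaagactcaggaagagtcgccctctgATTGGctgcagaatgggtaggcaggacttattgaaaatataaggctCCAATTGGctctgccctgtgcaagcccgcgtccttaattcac
Nudt7 held 4 GGGCGG and no CCAAT, Ehhadh held 2 and 1, and Acaa1b held 0 and 4. Of 38 promoter windows of the 32 members with an entry, 25 held GGGCGG and 12 held CCAAT, against 35.7% and 37.4% of all 32851 windows. The direct repeat of AGGTCA with 1 base between the copies, searched on both strands, was in 0 of the 38 windows and in 0.0396% of all. A single AGGTCA, which every such repeat also holds, was in 5 of the 38 and in 16.3% of all, and in none of the 3 printed. These are matches of letters within short windows, and they say nothing about binding.

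The livers 24 h after resection were compared with sham livers to find which peroxisome genes had changed by then. Lower were 4 of 11 enzymes of beta oxidation or of unsaturated fatty acids (Acaa1b, Acox3, Scp2 and Decr2) and 1 of 2 alpha-oxidation enzymes (Phyh). So were 3 of 4 enzymes of peroxide, epoxide and glyoxylate (Cat, Ephx2 and Agxt). Lower too were 2 of 3 genes of acyl-CoA entry (Slc27a2 and Abcd3) and the coenzyme A diphosphatase gene Nudt7. Most Pex genes did not pass the test. Of 26 enzymes and transporters 11 were lower and 1 was higher, and of 13 Pex genes 3 were lower and 0 higher (edgeR adjusted p under 0.05). Of all genes tested 35% were called, 15.8% lower and 19.1% higher. The median log2 fold change was -0.40 over the enzymes and -0.021 over the Pex genes, beside 0.0082 over all genes. At an unadjusted p under 0.05, 0 Pex genes were higher as well, and DESeq2 and limma on log2(FPKM + 1) also called 0 higher. How many of all genes reached an unadjusted p under 0.05 was not counted in any comparison. Counts at that threshold here and below therefore have no share of all genes to be judged by.

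Among the beta-oxidation and transport genes, Acaa1b (ENSMUSG00000010651, chr9:119148023-119157093, GRCm38) had 118 to 281 FPKM (median 187) in PHx24. The sham libraries had 367, 424, 473, 701 and 805 FPKM. Every PHx24 library lay below every sham library, with a log2 change of -1.40 ± 0.34 (SE, adjusted p = 0.00205, edgeR). Of the 50-base stretches of its transcripts 30.5% also occur in other genes, mainly its paralog Acaa1a, so the split of reads between both is uncertain. Slc27a2, a fatty acid transporter and very long-chain acyl-CoA synthetase (ENSMUSG00000027359, chr2:126552407-126588243), had 114 to 158 FPKM (median 147) in PHx24. It had 191, 225, 358, 323 and 385 FPKM in the sham libraries. The groups did not overlap, and the difference was a log2 change of -1.04 ± 0.16 (SE, adjusted p = 1.69e-05, edgeR). Acox3, an acyl-CoA oxidase of branched chains (ENSMUSG00000029098, chr5:35583040-35615352), was a low gene with 2.05 to 2.87 FPKM (median 2.40) in PHx24. The sham libraries had 3.54, 4.18, 6.16, 3.98 and 4.53 FPKM, all above PHx24. Its difference was a log2 change of -0.86 ± 0.14 (SE, adjusted p = 4.89e-05, edgeR). Also lower were Abcd3, the main transporter of long and branched acyl-CoA into peroxisomes (log2 fold change -0.68, adjusted p = 0.00195), Scp2 (log2 fold change -0.57, adjusted p = 0.00542) and Decr2, a dienoyl-CoA reductase (log2 fold change -0.37, adjusted p = 0.0362). Scp2 shares 29.7% of its 50-base stretches with other genes, mainly the pseudogene Scp2-ps2. No call was made for Acaa1a (-0.32), Ehhadh (-0.28), Hsd17b4, the second bifunctional enzyme (-0.09), Acox2 (-0.12), Amacr, which turns over the methyl branch (-0.15), Ech1, a dienoyl-CoA isomerase (-0.02), Pecr, an enoyl-CoA reductase (-0.62), or Abcd2 (0.39).

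Outside beta oxidation, Nudt7 (ENSMUSG00000031767, chr8:114133557-114154739) had 37.3 to 147 FPKM (median 81.4) in PHx24. The sham libraries had 126, 191, 245, 201 and 244 FPKM. The libraries PHx24 3 and PHx24 4 lay above the lowest sham library, sham 1, and the difference was a log2 change of -1.21 ± 0.37 (SE, adjusted p = 0.0115, edgeR). Cat (ENSMUSG00000027187, chr2:103453849-103485160) had 388 to 595 FPKM (median 564) in PHx24. It had 844, 1013, 1107, 1329 and 1419.8 FPKM in the sham libraries. The groups did not overlap, and the difference was a log2 change of -1.09 ± 0.17 (SE, adjusted p = 2.05e-05, edgeR). Phyh (log2 fold change -0.72, adjusted p = 0.000277) was lower with no overlap between groups. Ephx2, soluble epoxide hydrolase (log2 fold change -0.52, adjusted p = 0.00802), and Agxt, which removes glyoxylate (log2 fold change -0.48, adjusted p = 0.0306), were lower too. The 1 enzyme that was higher was Nudt19, a second coenzyme A diphosphatase (ENSMUSG00000034875, chr7:35547185-35556304), with 18.6 to 33.2 FPKM (median 20.8) in PHx24. The sham libraries had 12.04, 13.4, 12.2, 16.95 and 16.2 FPKM, all below PHx24. Its difference was a log2 change of 0.70 ± 0.15 (SE, adjusted p = 0.000632, edgeR). An antisense gene, B230322F03Rik, covers 35% of the exon bases of Nudt19, and the library kit does not mark strand, so reads of both cannot be told apart. Hao1, glycolate oxidase (-0.51), Hacl1, the lyase of alpha oxidation (-0.43), Gnpat and Agps of ether lipid synthesis (0.01 and 0.27), Hsdl2, a dehydrogenase-like protein (0.33), and Vnn1, a pantetheinase anchored at the cell surface and not a matrix enzyme (0.46), were not called.

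**Figure D2:**
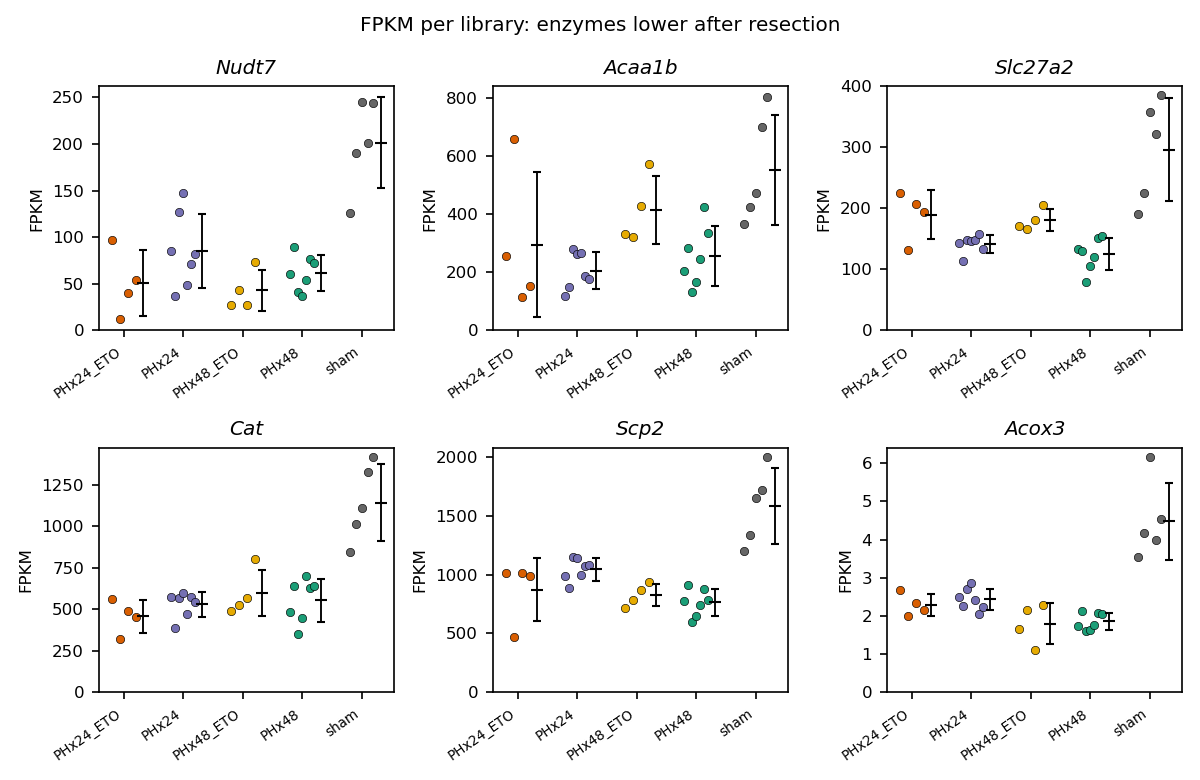
FPKM of 6 enzymes called lower in both comparisons with sham, with a point for each library and the mean ± SD beside it (n = 4, 7, 4, 7 and 5 from left to right). All 7 PHx24 libraries lie below all sham libraries for Acaa1b, Slc27a2, Cat, Scp2 and Acox3, and PHx24_ETO 2 is the high point of its group for Acaa1b. Without sham 4 and sham 5, Scp2 at 24 h and Acaa1b at 48 h were not called.

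Of the import receptors, Pex7, which brings in enzymes with an N-terminal signal (ENSMUSG00000020003, chr10:19853900-19907689), was lower, with 3.69 to 5.06 FPKM (median 4.18) in PHx24. The sham libraries had 5.49, 5.995, 5.81, 7.57 and 8.14 FPKM. It was the only Pex gene whose groups did not overlap in this comparison, with a log2 change of -0.62 ± 0.13 (SE, adjusted p = 0.000463, edgeR). Pex5, the receptor for the C-terminal signal, was -0.01 (adjusted p = 0.928), and the docking factors Pex13 and Pex14 were 0.07 and -0.02 without a call. Pex3, the membrane anchor for Pex19, was lower (log2 fold change -0.27, adjusted p = 0.0403), as was Pex11g, of the division machinery (log2 fold change -0.35, adjusted p = 0.0234). An antisense gene, Gm44775, covers 41.1% of the exon bases of Pex11g. The ligase genes Pex2 and Pex10 (0.06 and 0.15), the receptor-recycling ATPase Pex6 and its anchor Pex26 (-0.16 and 0.04), the membrane-protein factors Pex16 and Pex19 (-0.37 and 0.26) and Pex11a (-0.47) were not called. The calls of Pex3, Pex11g, Agxt and Decr2 were lost in limma on log2(TPM + 1), where TPM scales each library to the sum of its length-corrected counts, and each was also lost without at least 1 single library. Those libraries were sham 5 for all 4 genes, and also sham 3 for Pex3 and Decr2, sham 2 for Agxt, sham 4 for Decr2, PHx24 3, 4, 5 and 6 for Pex3, PHx24 2 and 5 for Agxt, and PHx24 6 and 7 for Decr2. Without sham 4 and sham 5, the sham libraries with the highest hepatocyte markers, the enzymes called lower numbered 6 in place of 11, and those called higher 2. The enzymes that lost the call were Scp2 (log2 fold change -0.46, adjusted p = 0.0523, edgeR), Abcd3, Ephx2, Agxt and Decr2. Without the 4 libraries with muscle or pancreatic transcripts 12 enzymes were lower, 1 was higher and 3 Pex genes were lower.

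The livers 48 h after resection were compared with the same sham livers. Lower were 7 of 11 enzymes of beta oxidation or of unsaturated fatty acids (Acaa1a, Acaa1b, Acox3, Hsd17b4, Scp2, Decr2 and Pecr). Phyh, Cat, Ephx2, Agxt, Slc27a2, Abcd3 and Nudt7 were lower as well, and the Pex genes called were all lower. Of 26 enzymes and transporters 14 were lower and 0 higher, and of 13 Pex genes 5 were lower and 0 higher (edgeR adjusted p under 0.05). Of all genes 36.5% were called, 17% lower and 19.5% higher. The median log2 fold change was -0.49 over the enzymes and -0.11 over the Pex genes, beside 0.0095 over all genes. At an unadjusted p under 0.05, 1 enzyme and 0 Pex genes were higher, and DESeq2 and limma on log2(FPKM + 1) called 0 higher in both classes. Without the 4 libraries named above, 14 enzymes and 5 Pex genes were lower.

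Nudt7 had 36.6 to 88.99 FPKM (median 60.7) in PHx48, below the 126 FPKM of the lowest sham library. It had the largest fall of the set, a log2 change of -1.69 ± 0.37 (SE, adjusted p = 0.000747, edgeR). Acox3 had 1.60 to 2.12 FPKM (median 1.75) in PHx48, again below every sham library, with a log2 change of -1.26 ± 0.14 (SE, adjusted p = 2.96e-07, edgeR). Slc27a2 had 78.6 to 155 FPKM (median 131) in PHx48, and no library reached the lowest sham value of 191 FPKM. The difference was a log2 change of -1.22 ± 0.16 (SE, adjusted p = 1.54e-06, edgeR). Acaa1b had 132 to 427 FPKM (median 245) in PHx48 and overlapped with sham, with a log2 change of -1.09 ± 0.33 (SE, adjusted p = 0.0124, edgeR). Scp2 had 595 to 916 FPKM (median 774) in PHx48, against 1198, 1336, 1654, 1725 and 2008 FPKM in the sham libraries. The groups did not overlap, and the difference was a log2 change of -1.03 ± 0.15 (SE, adjusted p = 1.06e-05, edgeR).

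Cat (log2 fold change -1.02, adjusted p = 3.27e-05), Ephx2 (log2 fold change -1.02, adjusted p = 7.49e-06), Phyh (log2 fold change -0.84, adjusted p = 4.22e-05) and Agxt (log2 fold change -0.82, adjusted p = 0.000448) were lower as well, each without overlap between PHx48 and sham. The remaining enzymes called lower were Pecr (-0.83), Decr2 (-0.57), Abcd3 (-0.52), Acaa1a (-0.51) and Hsd17b4 (-0.33), with adjusted p between 0.00188 and 0.0244. Nudt19, higher at 24 h, was 0.22 (adjusted p = 0.254). Ehhadh (-0.14), Acox2 (-0.12), Amacr (-0.01), Ech1 (-0.12), Hacl1 (-0.13), Hao1 (-0.46), Gnpat (-0.05), Agps (0.29), Hsdl2 (-0.07), Vnn1 (0.33) and Abcd2 (0.70) were not called.

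Pex11a, which promotes elongation and division of peroxisomes (ENSMUSG00000030545, chr7:79735957-79743131), had 9.74 to 17.3 FPKM (median 12.4) in PHx48. The sham libraries had 18.3, 19.3, 27.01, 23.9 and 33.8 FPKM, all above PHx48. The difference was a log2 change of -0.87 ± 0.24 (SE, adjusted p = 0.00636, edgeR). Pex6 also had no overlap with sham (log2 fold change -0.46, adjusted p = 0.00163), while Pex16 (log2 fold change -0.55, adjusted p = 0.00488), Pex3 (log2 fold change -0.36, adjusted p = 0.00657) and Pex7 (log2 fold change -0.34, adjusted p = 0.0374) were lower with overlap. The other 8 Pex genes lay between -0.17 (Pex2) and 0.10 (Pex10) without a call. All 5 Pex calls depended on the scaling: in TPM the median of all genes moved to 0.19 at 24 h and 0.32 at 48 h, the Pex median was 0.17 and 0.22, and 4 higher and 1 lower (24 h) and 6 higher and 0 lower (48 h) were called. Relative to all genes the Pex median in TPM was thus lower at both times. Of all 12376 genes, TPM called 3797 higher and 896 lower at 24 h, and 5687 higher and 655 lower at 48 h. Enzymes in TPM had medians of -0.19 and -0.13, below that of all genes, with 9 lower at both times and 4 (24 h) and 7 (48 h) higher. The 9 enzymes lower in TPM at 48 h were Nudt7, Acox3, Slc27a2, Acaa1b, Scp2, Cat, Ephx2, Phyh and Agxt. Single libraries ended the calls of Abcd3 (sham 5), Hsd17b4 (sham 4 or 5) and Pex7 (sham 4 or 5, or PHx48 1, 2 or 3). Without sham 4 and 5 together, 10 enzymes and 4 Pex genes were lower. The calls lost were those of Acaa1b (log2 fold change -0.76, adjusted p = 0.135, edgeR), Pecr, Abcd3, Hsd17b4 and Pex7.

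**Figure D3:**
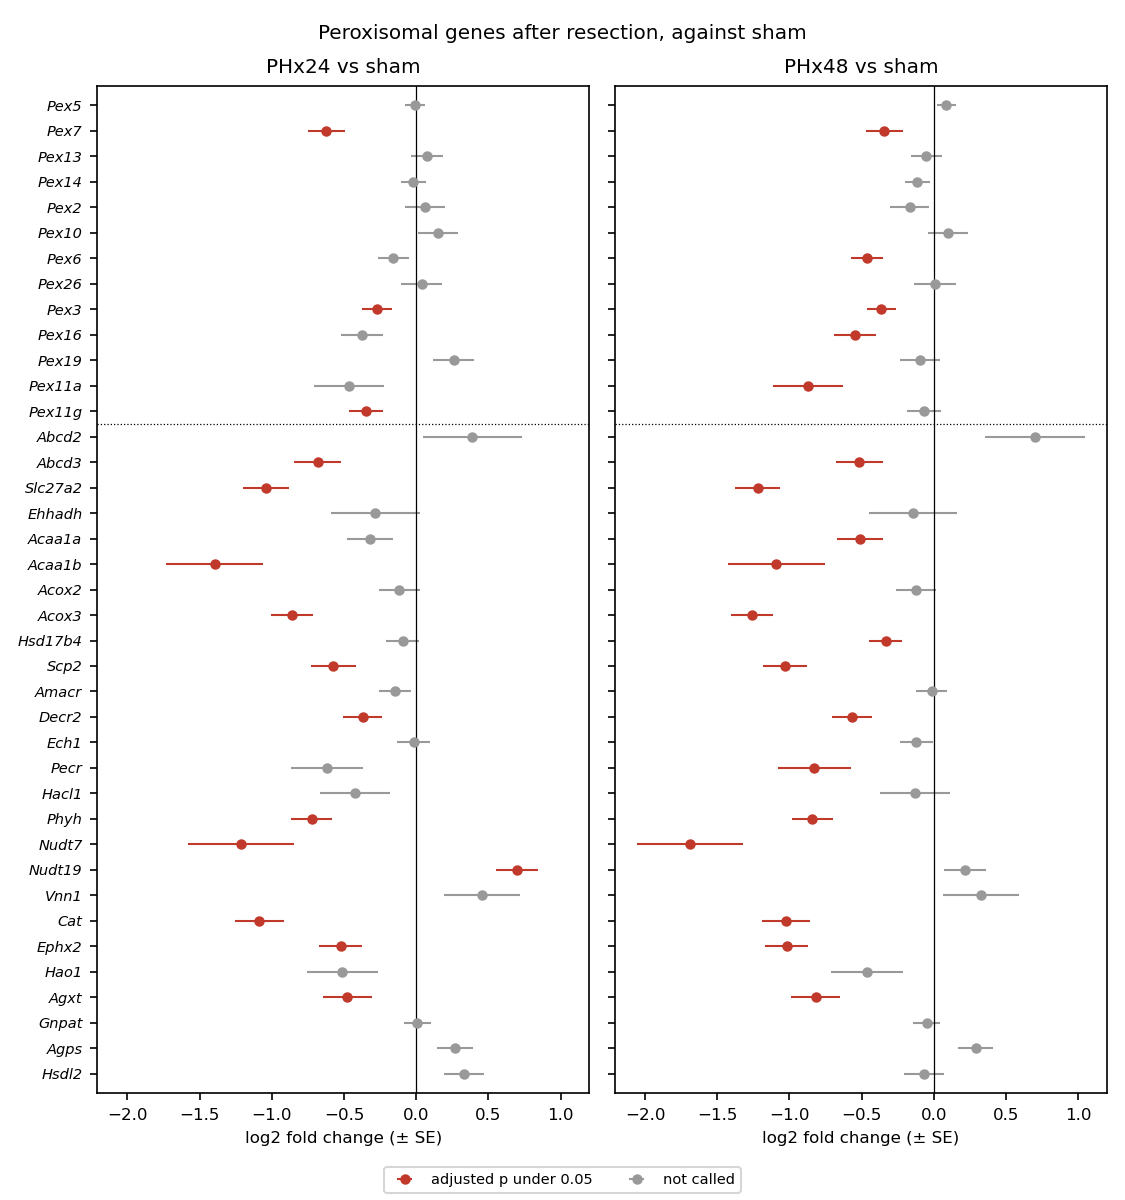
Log2 fold change (± SE) of each member in PHx24 (left) and PHx48 (right) against the same 5 sham libraries, with Pex genes above the dotted line and enzymes and transporters below it. Red points have an edgeR adjusted p under 0.05, which 3 Pex genes and 12 enzymes reached at 24 h and 5 Pex genes and 14 enzymes at 48 h.

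Between both times in untreated livers, PHx48 was compared with PHx24. Of 39 members 5 were lower and 0 higher at 48 h, where 11.6% of all genes were called, 5.41% lower and 6.19% higher. Those lower were Ephx2 (log2 fold change -0.50, adjusted p = 0.0194), Nudt19 (log2 fold change -0.48, adjusted p = 0.018), Scp2 (log2 fold change -0.46, adjusted p = 0.0366), Hsdl2 (log2 fold change -0.40, adjusted p = 0.0404) and Pex6 (log2 fold change -0.31, adjusted p = 0.0478). Nudt19 had 14.04 to 20.3 FPKM (median 14.9) in PHx48 and 18.6 to 33.2 FPKM (median 20.8) in PHx24. Ephx2 had 107 to 215 FPKM (median 149) in PHx48 and 163 to 269 FPKM (median 229) in PHx24. For none of the 39 members were PHx48 and PHx24 free of overlap. At an unadjusted p under 0.05, 2 Pex genes and 0 enzymes were higher, and DESeq2 and limma on log2(FPKM + 1) called 0. Leaving out the 4 libraries with muscle or pancreatic transcripts left 1 enzyme and 0 Pex genes lower. Single libraries ended 1 or more of them, namely each of the 7 PHx24 and 7 PHx48 libraries for at least 1 of Pex6, Scp2 and Hsdl2, PHx24 3 for Ephx2 and PHx24 2 for Nudt19. Without single libraries, 2 to 3 enzymes and 0 to 1 Pex genes were lower.

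Etomoxir was compared with untreated resection at each time to ask how blocking mitochondrial entry of fatty acids bore on these genes. At 24 h, Pex11a was higher with etomoxir in all 4 libraries, and no other member passed the test. Of 13 Pex genes 1 was higher and 0 lower, and of 26 enzymes 0 were called, where 2.9% of all genes were called, 1.58% higher and 1.33% lower. At an unadjusted p under 0.05, for which all genes were not counted, 5 enzymes were higher and 4 lower, and 0 Pex genes were lower. DESeq2 called 3 enzymes higher (Ehhadh, Vnn1 and Ech1) and 0 lower, and limma on log2(FPKM + 1) called 0 in both directions. The median log2 fold change was -0.052 over the enzymes and 0.10 over the Pex genes, beside 0.0062 over all genes.

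Pex11a had 23.96, 95.6, 25.2 and 26.4 FPKM in the PHx24_ETO libraries. It had 16.9 to 18.6 FPKM (median 17.1) in PHx24. All 4 etomoxir libraries lay above all 7 untreated ones, and PHx24_ETO 2 was far above the other 3. The difference was a log2 change of 1.28 ± 0.26 (SE, adjusted p = 0.00887, edgeR). Without PHx24_ETO 2 it was 0.52 (adjusted p = 0.0765), and with only the groups compared in the fit it was 1.28 (adjusted p = 0.101), while every other alternative run kept the call. The call thus rests on that library and on the shared estimate of spread. With only the groups compared in the fit, 0 of all 12376 genes were called. Without PHx24_ETO 2, 80 of all genes were higher and 58 lower, where 195 and 164 were with all libraries. The same library had the highest value of its group for Ehhadh (327 FPKM), Acaa1b (659.8 FPKM), Acox2 (103 FPKM) and Pex19 (72.8 FPKM). It had the lowest for Scp2 (469 FPKM), Hao1 (26.4 FPKM), Pecr (22.5 FPKM) and Nudt7 (12.5 FPKM). Ehhadh (log2 fold change 1.14, adjusted p = 0.052), Vnn1 (log2 fold change 0.83, adjusted p = 0.0867) and Ech1 (log2 fold change 0.39, adjusted p = 0.076) did not pass at 24 h. Without PHx24 5, in which Vnn1 was 25.4 FPKM, all 3 were called. Ehhadh alone was called without PHx24_ETO 1 or PHx24_ETO 3. Without PHx24_ETO 2 the log2 fold changes were 0.60 for Ehhadh (adjusted p = 0.38), 0.65 for Vnn1 (adjusted p = 0.301) and 0.45 for Ech1 (adjusted p = 0.0855), so the value for Ehhadh also rests on that library. Acaa1b was 0.50 with it and -0.25 without it, Pex19 0.31 and -0.0075, Acox2 0.19 and -0.088, and Nudt7 -0.76 and -0.43, none of them called.

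At 48 h, 4 genes were higher with etomoxir, among them 2 enzymes of fatty acid oxidation. They were Ehhadh, Ech1, Vnn1 and Hsdl2, out of 26 enzymes, with 0 lower, and of 13 Pex genes 0 were called, where 0.21% of all genes were called, 0.129% higher and 0.0808% lower. At an unadjusted p under 0.05, for which all genes were not counted, 7 enzymes were higher and 0 lower, and 2 Pex genes were higher and 1 lower. DESeq2 called 5 enzymes higher and 0 Pex genes, and limma on log2(FPKM + 1) called 4 and 0. The median log2 fold change was 0.13 over the enzymes and 0.013 over the Pex genes, beside -0.012 over all genes.

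Ehhadh (ENSMUSG00000022853, chr16:21761287-21787807) had 259, 172, 295 and 264 FPKM in the PHx48_ETO libraries. It had 49.98 to 123 FPKM (median 82.7) in PHx48. The groups did not overlap, and the difference was a log2 change of 1.56 ± 0.32 (SE, adjusted p = 0.0305, edgeR). Vnn1 (ENSMUSG00000037440, chr10:23894688-23905343) had 23.1, 28.8, 28.2 and 31.2 FPKM with etomoxir. The PHx48 libraries had 9.14 to 14.6 FPKM (median 11.1). All 4 treated libraries were above all 7 untreated ones, with a log2 change of 1.32 ± 0.27 (SE, adjusted p = 0.0302, edgeR). Hsdl2 (ENSMUSG00000028383, chr4:59581563-59618689) had 48.7, 37.3, 51.7 and 43.4 FPKM in PHx48_ETO. It had 18.9 to 30.3 FPKM (median 26.6) in PHx48. Again the groups were apart, with a log2 change of 0.83 ± 0.15 (SE, adjusted p = 0.0154, edgeR). Ech1 (ENSMUSG00000053898, chr7:28825217-28832247) had 157, 176, 239.6 and 231 FPKM in PHx48_ETO. Its PHx48 values were 98.9 to 154 FPKM (median 124). There was no overlap, and the difference was a log2 change of 0.69 ± 0.12 (SE, adjusted p = 0.0144, edgeR).

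The same separation of all libraries was seen without a call for Slc27a2 (log2 fold change 0.53, adjusted p = 0.322), Pex11a (log2 fold change 0.61, adjusted p = 0.554) and Abcd2 (log2 fold change 1.11, adjusted p = 0.316). How many of all genes tested were apart in this way was not counted in any comparison. A lack of overlap therefore describes the values of a gene and is not a call. Pex11a had 20.3, 19.5, 18.5 and 22.2 FPKM in PHx48_ETO and 9.74 to 17.3 FPKM (median 12.4) in PHx48. Abcd2 was low, at 7.32, 6.23, 4.66 and 4.58 FPKM in PHx48_ETO and 1.30 to 4.33 FPKM (median 2.62) in PHx48. The 4 calls at 48 h depended on single libraries. Leaving out PHx48_ETO 3 ended all 4, PHx48_ETO 1 ended those of Ehhadh, Vnn1 and Hsdl2, PHx48_ETO 4 those of Ehhadh, Vnn1 and Ech1, and PHx48_ETO 2 that of Vnn1. Leaving out PHx48 1, 2, 3, 4, 6 or 7 ended those of Ehhadh and Vnn1. Calls among all 12376 genes fell too, from 16 higher and 10 lower with all libraries. They were 2 higher and 1 lower without PHx48_ETO 1, 10 and 3 without PHx48_ETO 2, 1 and 0 without PHx48_ETO 3, and 6 and 9 without PHx48_ETO 4. Over these fits the log2 fold change stayed between 1.48 and 1.70 for Ehhadh, 1.26 and 1.40 for Vnn1, 0.77 and 0.91 for Hsdl2 and 0.61 and 0.79 for Ech1. Without the 4 libraries with muscle or pancreatic transcripts, 4 enzymes were higher at 48 h, and at 24 h 1 Pex gene and 0 enzymes. The hepatocyte markers had 0 of 8 called higher or lower at 48 h with etomoxir, and 1 higher at 24 h.

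**Figure D4:**
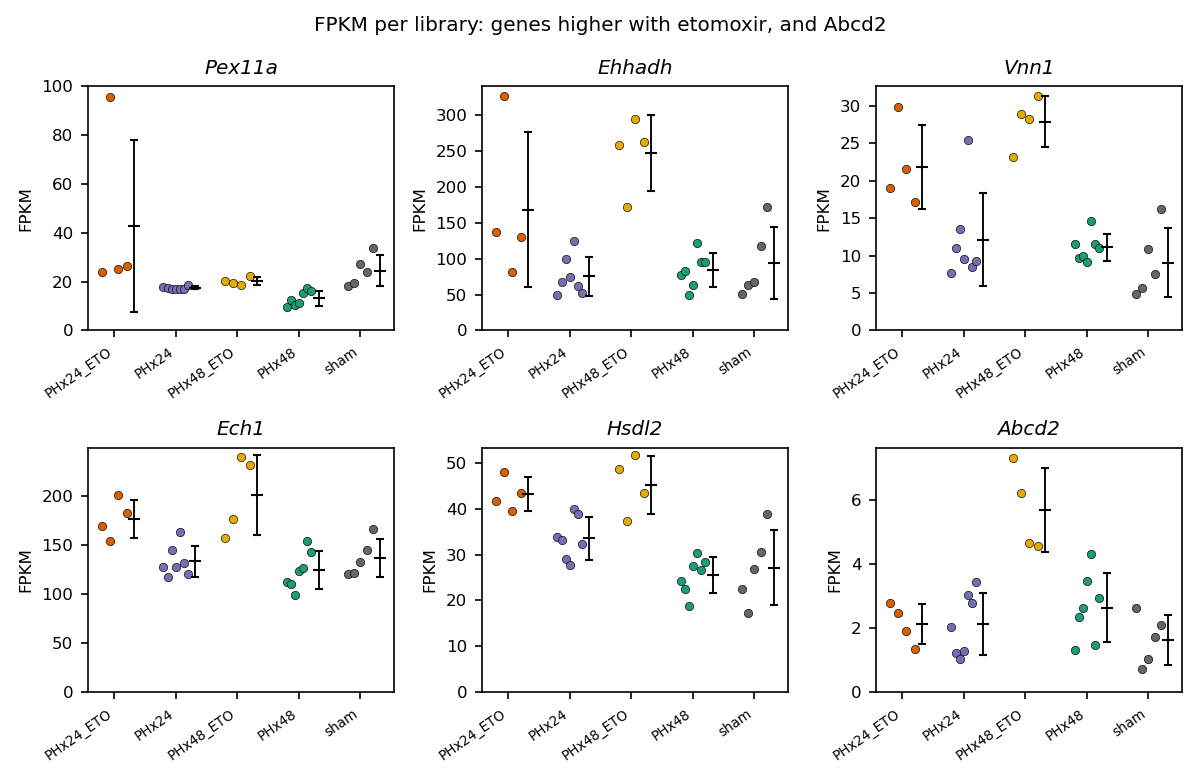
FPKM of 6 genes by library, with the mean ± SD beside the points (n = 4, 7, 4, 7 and 5 from left to right). The PHx48_ETO libraries lie above all PHx48 libraries for each of the 6 genes, and Pex11a in PHx24_ETO 2 reached 95.6 FPKM.

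Whether etomoxir acted differently at 48 h than at 24 h was tested for every gene, as the effect at 48 h minus that at 24 h. It was called for 0 of the 39 members and for 0.0162% of all genes by edgeR, and DESeq2 and limma on log2(FPKM + 1) also called 0 members. At an unadjusted p under 0.05, 3 enzymes and 1 Pex gene were higher and 1 Pex gene was lower. The difference was -0.67 (SE 0.37) for Pex11a, 0.43 (SE 0.47) for Ehhadh and 0.49 (SE 0.39) for Vnn1. Without PHx24_ETO 2 the value for Pex11a was 0.092. For Ehhadh it was 0.97 without PHx24_ETO 2, 0.20 without PHx24_ETO 3 and 0.26 without PHx24 5, and for Vnn1 it was 0.68 without PHx24_ETO 2 and 0.20 without PHx24 5. A call at one time and not at the other is therefore not shown to be a difference between times.

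**Figure D5:**
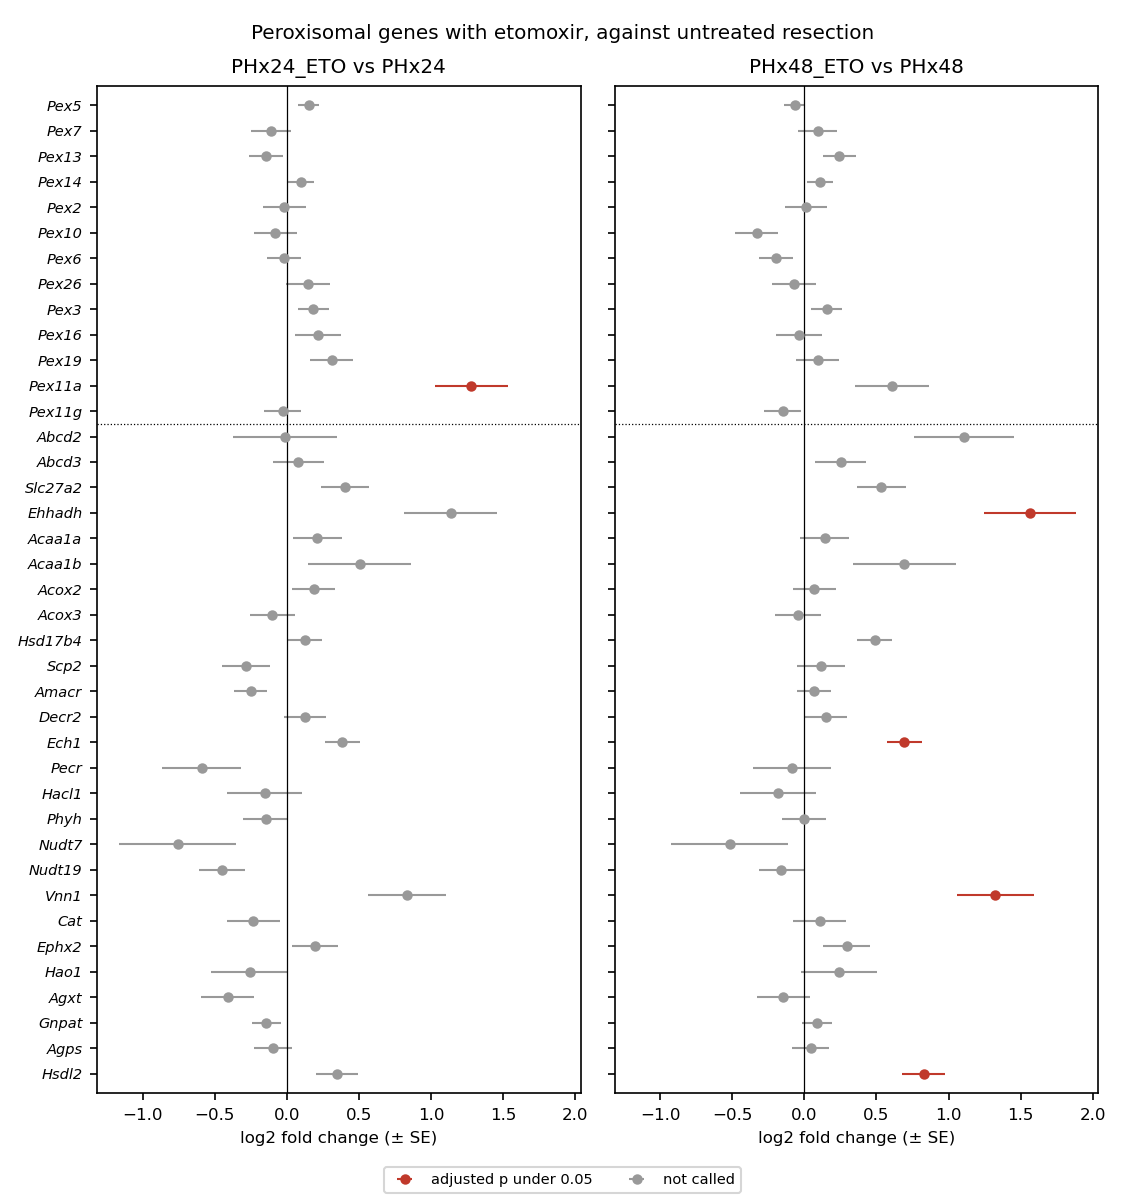
Log2 fold change (± SE) of each member with etomoxir against untreated resection at 24 h (left) and 48 h (right), with Pex genes above the dotted line and enzymes and transporters below it. Pex11a at 24 h and Ehhadh, Ech1, Vnn1 and Hsdl2 at 48 h are red, with an edgeR adjusted p under 0.05.

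Of the 39 members, 11 were listed as responsive to PPARA in mouse liver, with earlier results of these data known, and are given apart from the other 28. The list may not be complete, so the other 28 are not taken as unresponsive to PPARA. Those listed are Pex11a, Ehhadh, Acaa1a, Acaa1b, Ech1, Decr2, Pecr, Abcd2, Abcd3, Slc27a2 and Vnn1. With etomoxir, 1 of 11 was higher at 24 h and 3 of 11 at 48 h, against 0 of 28 and 1 of 28 (Hsdl2) of the others. Of all genes tested, 1.58% were higher at 24 h and 0.129% at 48 h. Because the list was made with earlier results known, setting the 11 beside the 28 is a description only. A part of PPARA in these changes was not tested. The median log2 fold change of the 11 was 0.39 at 24 h and 0.61 at 48 h, beside -0.086 and 0.055 for the other 28. Values were positive for 9 of the 11 at 24 h, all but Pecr (-0.59) and Abcd2 (-0.0092), and for 10 at 48 h, all but Pecr (-0.087). Without PHx24_ETO 2, 4 of the 11 were negative at 24 h and 0 were called. In PHx24 against sham 4 of the 11 were lower, with a median of -0.37, and in PHx48 against sham 7 of the 11 were lower, with a median of -0.52. Of the other 28, 10 were lower and 1 higher in PHx24 (median -0.15), and 12 were lower in PHx48 (median -0.15). Of all genes tested, 15.8% were lower and 19.1% higher in PHx24 than in sham, and 17% were lower in PHx48. The resection comparisons share the sham libraries, and each etomoxir comparison shares its untreated group with a resection comparison, so opposite signs between them are not independent.

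Further peroxisome genes outside the set were counted from a list of 47, of which 40 were tested. In PHx24 against sham 14 of 40 were lower and 5 higher, where 15.8% of all genes tested were lower and 19.1% higher. The largest falls were those of Uox, urate oxidase (log2 fold change -1.37, adjusted p = 0.00115), Pipox, which oxidises pipecolate and sarcosine (log2 fold change -0.98, adjusted p = 4.18e-05), Paox, a polyamine oxidase (log2 fold change -0.98, adjusted p = 0.00803), and Acbd5, a membrane protein that tethers peroxisomes to the endoplasmic reticulum (log2 fold change -0.97, adjusted p = 3.19e-05). The largest rises were those of the acyl-CoA thioesterases Acot3 (log2 fold change 3.07, adjusted p = 8.16e-05) and Acot4 (log2 fold change 1.03, adjusted p = 0.00035). Acot3 and Acot4 belong to a family of similar neighbouring genes, so the split of their reads is uncertain. Acot3 was also very low in sham, with a median of 0.155 FPKM and a highest value of 0.377 FPKM. Its medians were 1.205 FPKM in PHx24 and 1.077 FPKM in PHx48. No sham library reached the 1 FPKM of the expression filter, so Acot3 passed it through other groups. The size of its change against sham is therefore uncertain at both times. In PHx48 against sham 20 of 40 were lower and 2 higher, where 17% of all genes tested were lower and 19.5% higher. Mlycd, malonyl-CoA decarboxylase (log2 fold change -1.02, adjusted p = 2.42e-08), Ddo, D-aspartate oxidase (log2 fold change -0.98, adjusted p = 3.23e-05), Uox (log2 fold change -0.93, adjusted p = 0.0204) and Crot, carnitine octanoyltransferase (log2 fold change -0.92, adjusted p = 0.000272), had the largest falls, and the 2 that were higher were again Acot3 (2.60) and Acot4 (0.89). In TPM these counts were 9 lower and 7 higher at 24 h and 7 lower and 13 higher at 48 h. Of all 12376 genes, 896 were lower and 3797 higher in TPM at 24 h, and 655 lower and 5687 higher at 48 h. In PHx48 against PHx24 6 of 40 were lower and 1, Tmem135, was higher (log2 fold change 0.38, adjusted p = 0.0288). Of all genes tested, 5.41% were lower and 6.19% higher in that comparison. With etomoxir, edgeR called 0 of 40 at 24 h and 0 of 40 at 48 h, beside 2.9% and 0.21% of all genes tested. At an unadjusted p under 0.05, 3 were higher and 4 lower at 24 h, and 12 were higher and 2 lower at 48 h. All genes were not counted at that threshold, and the shares of 2.9% and 0.21% are at an adjusted p, so they cannot be set beside these counts. DESeq2 called 2 higher and 1 lower at 24 h and 0 at 48 h, and limma on log2(FPKM + 1) called 0 at both times.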

How the data were processed

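The 27 mouse liver libraries were prepared from poly(A) RNA with a NEBNext Ultra kit, which does not mark strand, per the labels' protocols. Names in the submitters' processing notes are HISAT2 2.0.5, featureCounts 1.5.0-p3, DESeq2 1.20.0, CASAVA 1.8 and fastp, and the builds GRCm38 and mm10, without roles. How the counting treated strand is not given in the sources used here. Deposited by the authors were a raw count and an FPKM for each gene and library. Recomputed from the counts, the deposited FPKM matched a count over gene length and over a library size proportional to a median-of-ratios size factor.

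Genes reaching 1 FPKM in 4 or more libraries (12376) were tested on the counts with edgeR 4.0.16 in R 4.3.3 (TMM, quasi-likelihood F test, 5 groups in 1 fit, Benjamini-Hochberg adjustment over these genes, call at an adjusted p under 0.05). An SE was taken as the log2 fold change over the root of F. The biological coefficient of variation was 0.266, so variation between libraries and not counting error set the precision, except for some low genes. Groups and replicate numbers came from the labels. Most same-numbered libraries did not deviate together (45 pairs, r from -0.241 to 0.662, 13 over 0.1), and the numbers were not taken as pairs. The highest r were 0.662 for sham 1 with PHx24 1 and 0.452 for PHx24 2 with PHx24_ETO 2. Pairs of different numbers were not checked, so pairing is not excluded. Values in every library are given for up to 5 called members per direction and comparison, by size of change, and other peroxisome genes are named for up to 4. The members, lists and tests were chosen with earlier results of these data known. Alternatives were DESeq2 1.42.0, limma 3.58.1 on log2(FPKM + 1), log2(FPKM + 0.1) and log2(TPM + 1) with TPM computed from the counts, scaling to library totals, no filter, only the groups compared, a replicate block, each library left out, and the 4 libraries with muscle or pancreatic transcripts left out. Leaving out sham 4 and sham 5 together was added after the data were seen. The fits were checked on simulated counts. Targeting signals in the proteins were not analysed here.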

Additional observations from a re-analysis of the deposited data

Results flagged for a closer look

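In groups of 4 to 7 libraries, 13 of 195 combinations of member and group had 1 library far from the others, where chance gives about 1 in 20. Of these, 6 were in PHx24_ETO 2. There Pex11a was 95.6 FPKM against 24.0 to 26.4 FPKM in the other 3 libraries, Pex19 was 72.8 FPKM against 35.2 to 39.1 FPKM, and Acox2 was 103.5 FPKM against 52.5 to 58.7 FPKM. In the same library Scp2 was 469 FPKM against 987 to 1015 FPKM, Pecr was 22.5 FPKM against 82.5 to 91.1 FPKM, and Hao1 was 26.4 FPKM against 119 to 132 FPKM.

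In PHx24 5, Vnn1 was 25.4 FPKM against 7.70 to 13.6 FPKM in the other libraries of its group, and Hsd17b4 was 136 FPKM against 110.1 to 120.2 FPKM. Pex10 was 3.29 FPKM in PHx24 3, against 2.10 to 2.61 FPKM. Hsd17b4 was 122 FPKM in PHx24_ETO 3, against 131 to 132.5 FPKM, a small gap in a narrow group. Amacr was 62.9 FPKM in PHx48 3, which held muscle transcripts, against 79.7 to 90.8 FPKM. Agps was 2.44 FPKM in PHx48 5, against 1.54 to 1.85 FPKM. Gnpat was 19.7 FPKM in sham 1, which also held muscle transcripts, against 12.7 to 14.7 FPKM. No cause was tested for any of these.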

How the results depend on the processing

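Over the settings other than leaving out single libraries, 492 values of single genes kept their direction and their side of the threshold, 70 lost a call, 10 gained one and 2 turned in direction. Leaving out single libraries, 613 kept both, 79 lost a call, 5 gained one and 1 turned. The 2 that turned were Hsd17b4 (0.0212) and Pex7 (0.0089) in PHx48 against sham in TPM, and the 1 was Pex11a in the difference between the etomoxir effects without PHx24_ETO 2 (0.0922, the highest value over the libraries left out, the lowest being -0.8656). In TPM, PHx24 against sham had 4 Pex genes higher, 1 lower and 4 enzymes higher, PHx48 against sham had 6 Pex genes higher, 0 lower, 7 enzymes higher and 9 lower, PHx48 against PHx24 had 3 Pex genes higher, 0 lower, 1 enzyme higher and 1 lower, and PHx24_ETO against PHx24 had 2 enzymes higher. TPM and library totals weight the most abundant genes more than TMM does, by construction. Of all 12376 genes, TPM called 3797 higher and 896 lower in PHx24 against sham, and 5687 higher and 655 lower in PHx48 against sham. It called 1691 higher and 264 lower in PHx48 against PHx24, and 100 higher and 269 lower in PHx24_ETO against PHx24. Library totals called 2973 higher and 1255 lower, 4278 and 986, 1453 and 320, and 105 and 166, in the same order. With library totals only, PHx24 against sham had 3 enzymes higher, PHx48 against sham had 1 Pex gene higher, 1 lower and 3 enzymes higher, PHx48 against PHx24 had 2 Pex genes higher, 0 lower and 2 enzymes lower, and PHx24_ETO against PHx24 had 2 enzymes higher. Without a filter, more genes shared the adjustment, and 1 Pex gene was lower in PHx24 against sham, 0 Pex genes and 1 enzyme were lower in PHx48 against PHx24, and 2 enzymes were higher in PHx48_ETO against PHx48. With only the groups compared, 5 Pex genes were lower and 2 enzymes higher in PHx24 against sham, 1 Pex gene was higher and 3 lower in PHx48 against PHx24, and 0 Pex genes were higher in PHx24_ETO against PHx24. That last fit called 0 of all 12376 genes. In limma on log2(FPKM + 1) and log2(FPKM + 0.1), 0 Pex genes were lower in PHx48 against PHx24. DESeq2 gave 3 enzymes higher in PHx24_ETO against PHx24. Without the 4 libraries with muscle or pancreatic transcripts, 0 Pex genes and 1 enzyme were lower in PHx48 against PHx24. Without sham 4 and sham 5, chosen after the data were seen, 2 enzymes were higher and 6 lower in PHx24 against sham. The cause of these shifts was not tested beyond what the settings change by construction.

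With the replicate number as a block, 2 enzymes were higher in PHx24 against sham, 1 in PHx48 against sham and 3 in PHx24_ETO against PHx24, and 0 Pex genes were lower in PHx48 against PHx24. The block moved no other count by over 1.5 times, and the numbers were not taken as pairs. Leaving out single libraries gave 1 to 4 Pex genes lower and 1 to 3 enzymes higher in PHx24 against sham (1 and 3 without sham 5, and 2 enzymes higher without PHx24 4), 0 to 1 enzymes higher in PHx48 against sham (1 without sham 1 or PHx48 6), 0 to 1 Pex genes and 2 to 3 enzymes lower in PHx48 against PHx24, 0 to 1 Pex genes and 0 to 3 enzymes higher in PHx24_ETO against PHx24, and 0 to 4 enzymes higher in PHx48_ETO against PHx48.

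With 4 libraries in each etomoxir group and a coefficient of variation of 0.266, small changes could not be seen, and a missing call does not show that a gene was unaffected. Counting error matters mainly for low genes such as Agps and Pex10. Abcd2, also low, varied more between libraries, with a coefficient of variation of 47.5% in sham.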
